A study of Homo sapiens with 68 samples.

Results

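The libraries described here are hnRNPI TLC-CLIP libraries prepared without ultraviolet crosslinking and with gel purification, set against crosslinked libraries of the same protein, cell number and RNase amount. The members are the samples titled noUV_hnRNPI (2 libraries) and hnRNPI_50k_lowRNase (2 libraries), which are 4 of the 68 samples of the series. TLC-CLIP isolates the RNA fragments held by one protein by immunoprecipitation and sequences them. All 4 libraries came from HEK293T cells, an established human embryonic kidney line, with 50000 cells and 0.005 U of RNase per the labels, and with the hnRNPI antibody SH54. In both groups the complexes were separated by PAGE (polyacrylamide gel electrophoresis) and recovered from the gel. The labels carry one treatment text, which describes UV crosslinking, for every sample, so the absence of UV is taken from the sample titles and from the series design, where such libraries are named as controls for co-purifying fragments. Nothing in the labels says whether the replicates are separate cultures, so the spread between them may be technical. The noUV samples carry accessions from a separate run of numbers than the crosslinked ones, and if that marks a preparation batch, batch and crosslinking cannot be told apart.

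The protein hnRNPI is better known as PTBP1, the polypyrimidine tract binding protein, which binds pyrimidine-rich stretches in introns and represses or activates neighbouring exons. UV light joins protein and RNA covalently where they touch, so that the complex survives stringent washing, gel separation and transfer. A library made without UV therefore holds RNA that reached the sequencer with no covalent bond made by UV, which is why it serves as a background measurement in CLIP studies.

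Each library has a list of peaks, with a position, a p-value and a gene identifier per peak. The final number in each peak name is taken here as a count of reads at the peak, although the sources used here do not define it. The number of sequenced reads is unknown, so the precision that depth gives cannot be stated, and fewer peaks may partly reflect fewer reads. Positions are given in hg19, the build named in the submitters' processing notes. No gene table used here matched any of the 15927 gene identifiers in the 4 lists, so genes are described by class, by position and, for a few, by identifier, and no exon, intron or UTR is assigned.

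Without UV, the hnRNPI lists were far shorter and covered fewer genes. The noUV libraries listed 18690 and 36809 peaks, and the crosslinked libraries listed 312894 and 294597. The groups did not overlap, and the mean log2 difference was -3.53. Genes with at least 1 peak numbered 5243 and 7534 without UV and 13743 and 14098 with UV, a mean log2 difference of -1.15. The loss was thus much smaller for genes than for peaks. A single gene held at most 64 and 132 peaks without UV, against 883 and 753 with UV. With 2 libraries against 2, the two-sided exact permutation test cannot go below p = 0.333, and peak number, gene number and median width each gave that p.

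Single peaks were also narrower and thinner without UV. Median peak width was 48 and 44 nt without UV and 64 and 56 nt with UV. Peaks of at most 5 reads made up 40.1% and 41.0% of the noUV lists and 14.3% and 18.4% of the crosslinked lists. The width difference of -14 nt became 1.5 nt in the other direction when peaks less than 30 nt apart on the same strand were joined. The gene difference also turned, to a log2 difference of 0.30, when every list was cut to its 18690 peaks of smallest p: at equal list length, the noUV peaks were spread over more genes than the crosslinked ones.

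**Figure D1:**
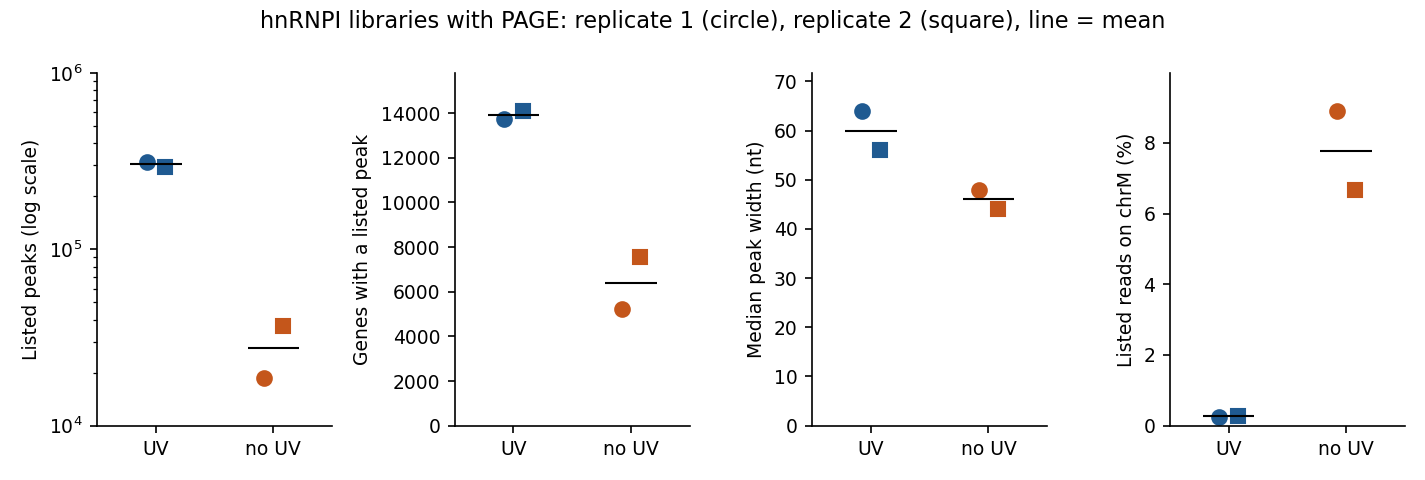
Listed peaks (log axis), genes with a listed peak, median peak width in nt and percent of listed reads on the mitochondrial chromosome (chrM) for the 2 crosslinked (UV) and 2 noUV libraries; circles are replicate 1, squares replicate 2 and lines group means. The groups do not overlap in any panel: the first 3 measures are lower without UV, and the chrM share is higher, at 8.91% and 6.67% against 0.259% and 0.284%.

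The noUV replicates shared fewer peaks with each other than the crosslinked replicates did. Of the noUV peaks, 20.5% of replicate 1 and 10.6% of replicate 2 overlapped a peak of the other noUV library, by at least 1 nt on the same strand. The crosslinked values were 41.5% and 46.0%. These shares depend on list length, so they were not compared by a test.

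To ask which binding sites stay listed without crosslinking, the peaks of crosslinked replicate 1 that replicate 2 overlapped were taken as crosslinked sites. There were 129781 such sites in 10521 genes. Both noUV libraries overlapped 1893 of them (1.46%), called kept sites below. One noUV library overlapped a further 3920 (3.02%). The remaining 123968 sites (95.5%), called lost, had no overlapping peak in either noUV library. Singly, the noUV libraries overlapped 2.55% and 3.39% of the crosslinked sites, 2.97% ± 0.599 (SD, n = 2). When the same noUV peaks were moved by 1000 nt as a positional background, they overlapped 0.765% and 1.32%, so each library lay above its own background.

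Sites with many reads stayed listed most often. The median kept site had 37 reads in crosslinked replicate 1, and the median lost site had 14. The sites were ordered by reads and cut into 10 groups of equal size. In the group with the fewest reads (4 to 7), 0.316% were kept and 98.6% were lost. In the group with the most reads (44 to 12589), 6.55% were kept and 84.0% were lost, so the large majority of well-covered sites also had no noUV counterpart. The moved peaks gave a lower share in each of the 10 groups, but their share was also larger where reads were many. In the group with the fewest reads, the noUV libraries overlapped 0.709% and 1.02%, against 0.154% and 0.370% when moved. In the group with the most reads, they overlapped 9.74% and 12.8%, against 2.84% and 4.87% when moved. Median site width was 48 nt in the first of these groups and 112 nt in the second. The part of read number apart from width and place was not tested.

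**Figure D2:**
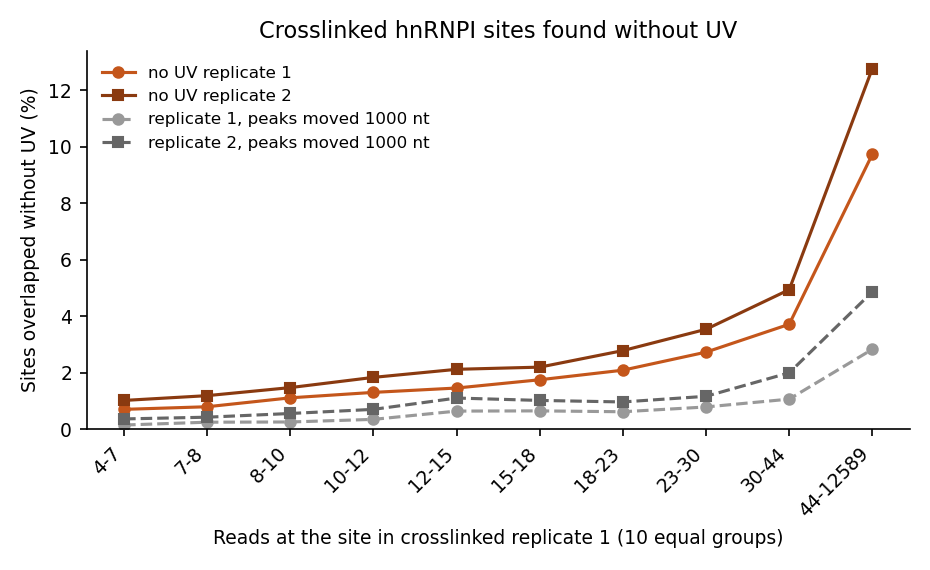
Percent of crosslinked hnRNPI sites overlapped by a peak of each noUV library, in 10 groups of equal size ordered by the sites' reads in crosslinked replicate 1; solid lines are the deposited noUV peaks and dashed grey lines the same peaks moved by 1000 nt. The share reaches 9.74% and 12.8% in the group with the most reads, where the moved peaks reach 2.84% and 4.87%.

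The very strongest crosslinked sites were almost all kept. Of the 100 sites with the smallest p in replicate 1, both noUV libraries overlapped 90. Of the first 1000, they overlapped 286 (28.6%), and of the first 10000, 7.46%. A tall stack of reads is often listed as several adjacent peaks, so a few positions count several times in these numbers. With peaks joined into positions, 52 of the first 100 and 185 of the first 1000 were kept, and 1356 of all 109247 (1.24%). Thus about as many of the strongest joined positions had no peak in one or both noUV libraries as had one in both.

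Kept sites carried a large part of the reads listed without UV. Joined positions that touched a kept site held 38.7% and 26.9% of the listed reads of the noUV libraries, and 3.32% and 3.56% of those of the crosslinked libraries. Lost sites held 57.2% and 60.3% of the crosslinked reads. Kept sites had a median of 37 and 30 reads in the crosslinked libraries and 18 and 19 in the noUV libraries. By comparison, the listed reads of a whole noUV library were 139493 and 225624, and those of a crosslinked library 3711103 and 2994863. Read numbers at kept sites therefore differed far less between the groups than the totals did. The requirement of a peak in both noUV libraries selects for such sites, so no test was made.

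The first 5 kept sites by rank of p in all 4 libraries, with 1 per gene, show this range. The first lay at chr11:10823027-10823108 on the minus strand, with 9577 and 7063 reads with UV and 2222 and 2775 without. All noUV libraries of hnRNPA1, hnRNP C and RBFOX2 also listed this first site, with 25 to 121 reads. The second, at chr11:62609207-62609216 (minus), had 2396 and 1983 reads with UV and 2189 and 2523 without, so the groups overlapped in unscaled reads. It was also listed in both noUV libraries of hnRNPA1, with 623 and 505 reads, of hnRNP C, with 5967 and 15149, and of RBFOX2, with 8466 and 11540. The crosslinked RBFOX2 libraries listed it with 22905 and 16726 reads.

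The third kept site was mitochondrial, at chrM:1733-1777 (plus), with 1757 and 1735 reads with UV and 1021 and 1118 without. All noUV libraries of hnRNPA1, hnRNP C and RBFOX2 listed this site too, with 3480 to 54223 reads. A site at chr22:42335980-42336102 (minus) had 1290 and 1112 reads with UV and 500 and 655 without. The fifth, at chr3:78933945-78934072 (minus), had 466 and 440 reads with UV and 548 and 605 without. Both of these last sites were listed in both noUV hnRNP C libraries, with 35 and 25 and with 32 and 21 reads, and in no noUV library of hnRNPA1 or RBFOX2.

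Lost sites included strong ones. A site of 197 nt at chr19:54969888-54970084 (plus) had 580 and 492 reads with UV and no noUV peak closer than 238 and 1886 nt. A site of 204 nt at chr7:27208187-27208390 (minus) had 415 and 446 reads, and the nearest noUV peaks were 281 and 127 nt away. A site at chr7:100480695-100480828 (plus) had 434 and 439 reads. Each of these 3 sites was listed in both noUV libraries made without PAGE, with 30 and 43, 21 and 19, and 26 and 65 reads in the order given.

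The other lost sites of the first 5 lay close to a noUV peak. The site at chr11:10823020-10823026 is 7 nt wide and adjoins the first kept site, and a noUV peak lay 17 nt away in both libraries. The site at chr11:65195149-65195195 (plus) had 464 and 577 reads, with noUV peaks 71 and 27 nt away. Such neighbours were rare in general: 2.56% of the lost sites had a noUV peak within 100 nt.

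Kept sites overlap a noUV peak by definition, so their centres can differ little, and offsets are given as a description. The median absolute offset from crosslinked replicate 1 was 16 nt in both noUV libraries and 12 nt in crosslinked replicate 2. The median signed offset of the peak centre interval from that of crosslinked replicate 1 was -2 nt in both noUV libraries, along the strand, and 2 nt in crosslinked replicate 2. Offsets of at most 5 nt were found at 23.7% and 23.1% of kept sites for the noUV libraries and at 28.9% for crosslinked replicate 2. Median widths at kept sites were 69 and 67 nt without UV and 77 and 71 nt with UV. Of the 1893 kept sites, 1105 (58.4%) were narrower without UV.

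Read from the noUV side, a larger share of the peaks overlapped the much longer crosslinked lists. Of all noUV peaks, 33.5% and 25.6% overlapped a crosslinked hnRNPI peak, against 14.5% and 13.0% after a move of 1000 nt. At equal list length both shares were 10.5%, and with all lists restricted to p below 1e-05 they were 52.5% and 38.8%. Of the 3837 noUV peaks that both noUV libraries listed, 1854 (48.3%) were in both crosslinked libraries, 915 in 1 of them and 1068 (27.8%) in neither. Among the 100 of these peaks with the smallest p, 93 were in both crosslinked libraries, and 725 of the first 1000 were. Adjacent peaks of 1 stack count several times here too, and these first peaks were not counted again as joined positions. Of all 2826 joined noUV positions of both libraries, 1314 (46.5%) were in both crosslinked libraries and 812 (28.7%) in neither. Against the full crosslinked lists, most peaks that recurred without UV thus lay at places listed in at least 1 crosslinked library.

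The 1068 peaks of the noUV libraries alone had fewer reads at the median than those also listed with UV. Their median was 8 reads, against 18 for noUV peaks also in both crosslinked libraries. They lay in 665 genes, of which 424 (63.8%) held 1 such peak. With so few peaks, that share does not show how they are spread over genes. Joined positions touching them held 11% and 8.07% of the noUV listed reads. Of them, 38.2% lay within 100 nt and 79.7% within 1000 nt of a crosslinked peak. No background was computed for these distances, and the crosslinked lists are long.

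The strongest of them was a stack of 15 nt at chr15:72638827-72638841 (minus), with 1186 and 1109 reads without UV and no peak there in either crosslinked library. The nearest crosslinked peaks were 1452 and 1376 nt away. The hnRNPI libraries without PAGE listed it with 12 and 23 reads with UV and 27 and 61 without, and no noUV library of hnRNPA1, hnRNP C or RBFOX2 listed it. A stack of 3 nt at chr10:103124607-103124609 (minus) had 544 and 512 reads, with crosslinked peaks 22 and 23 nt away. It was also listed in both noUV libraries of hnRNPA1, with 201 and 242 reads, of hnRNP C, with 231 and 294, and of RBFOX2, with 1073 and 1317, and in no crosslinked library of these proteins.

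A mitochondrial peak at chrM:2772-2796 (plus) had 697 and 907 reads without UV, with crosslinked peaks 52 and 40 nt away. The peak at chr16:58054047-58054096 (plus) had 96 and 164 reads, and that at chr22:42334860-42334901 (minus) had 225 and 227. In the noUV libraries without PAGE they had 1240 and 1381, and 2495 and 2794 unscaled reads. The crosslinked libraries without PAGE listed the chrM peak with 5367 and 4169 reads and the chromosome 16 peak with 784 and 769. They listed the chromosome 22 peak in replicate 2 alone, with 186 reads. The peak on chromosome 22 carries the same gene identifier as the kept site there.

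Libraries that played no role in defining these classes gave a further view of them. The crosslinked hnRNPI libraries without PAGE overlapped 95.1% ± 0.896 (SD, n = 2) of kept sites and 77.9% ± 0.359 of lost sites. When moved by 1000 nt, they overlapped 19.5% and 15.1%. Lost sites were therefore mostly found again with UV. The noUV libraries without PAGE overlapped 95.1% ± 0.187 of kept sites and 6.34% ± 2.59 of lost sites, against 22.1% and 2.26% when moved. Those same libraries overlapped 67.1% ± 2.25 of the noUV-only peaks, against 18.8% ± 2.85 when moved by 1000 nt. The crosslinked libraries without PAGE overlapped 43.1% ± 0.0662 of the noUV-only peaks, against 15.1% ± 0.331 when moved, so many of these peaks were listed with UV when the gel step was omitted. So most sites kept without UV in gel-purified libraries were listed again without UV when the gel step was omitted, and the lost sites were again mostly absent.

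Part of the kept sites was shared with other antibodies. The noUV libraries of hnRNPA1, hnRNP C and RBFOX2, the other RNA-binding proteins profiled in the series, overlapped 27.7%, 47.8% and 28.4% of kept sites on average. For lost sites, the averages were 3.81%, 14.4% and 0.780%. These lists differ in length, from 22911 peaks for a noUV RBFOX2 library to 299616 for a noUV hnRNP C library, so their values are not ranked against each other. Counting a protein only when both of its noUV libraries overlapped, 344 kept sites (18.2%) were listed for all 3 proteins and 1047 (55.3%) for none. Among lost sites 92.0% were listed for none, and among noUV-only peaks 70.9%. The sharing was not limited to noUV libraries. Crosslinked libraries of hnRNPA1 and RBFOX2 overlapped 32.0% and 38.8% of kept sites on average, against 16.1% and 10.1% when moved. Those of hnRNP C overlapped 7.24% in replicate 1, which has 3268 peaks, and 31.6% in replicate 2. Counted in the same way over crosslinked libraries, 1105 kept sites (58.4%) were listed for none of the 3 proteins.

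**Figure D3:**
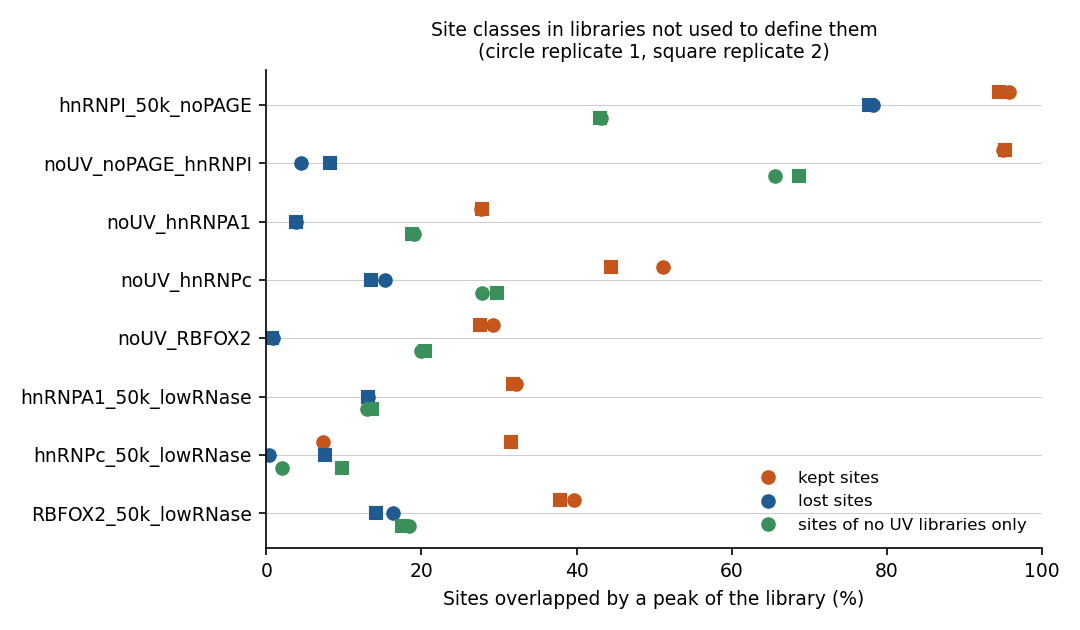
Percent of kept sites (1893), lost sites (123968) and peaks of the noUV libraries alone (1068) overlapped by each library of 8 other groups, named by their sample titles; circles are replicate 1 and squares replicate 2. Both hnRNPI groups without PAGE overlap nearly all kept sites, while the noUV one overlaps few lost sites; replicate 1 of hnRNPc_50k_lowRNase has a list of 3268 peaks, and its points lie lower than those of replicate 2.

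At the level of genes, 12443 were listed in both crosslinked libraries. Of these, 3813 (30.6%) were listed in both noUV libraries, 3998 (32.1%) in 1, and 4632 (37.2%) in neither. Genes with many crosslinked peaks were kept more often than genes with few. The median was 26.5 crosslinked peaks in a kept gene, 11.5 in a gene of 1 noUV library and 4.5 in a lost gene. Of genes with under 5 crosslinked peaks 11.5% were kept, and of genes with 100 or more 86.4% were. Kept genes also covered a longer stretch from first to last listed peak, with a median of 66.0 kb against 24.4 kb in lost genes. A gene counted as kept with a noUV peak anywhere in it, and the parts of length and peak number were not tested. Under the 18690 peaks of smallest p per library, 1674 genes were kept and 805 lost, so the excess of lost over kept genes does not hold at equal list length.

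Kept genes were not always listed at their crosslinked sites. Of the 3813 kept genes, 863 (22.6%) had a kept site and 1012 (26.5%) had crosslinked sites overlapped in 1 noUV library only. A further 1718 (45.1%) had crosslinked sites but none at a noUV peak. Kept genes had a median of 3.5 noUV peaks against 26.5 crosslinked peaks. Of the 893 genes with a kept site, 498 (55.8%) had 1, while 19.3% of genes with crosslinked sites had 1. Kept sites are far fewer, and a larger share of genes with 1 site can follow from that alone. These shares therefore do not show how kept sites are spread over genes. The 75 genes with 5 or more kept sites held 29.5% of them, and 1 gene held 46.

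Few genes were listed without UV alone against the full crosslinked lists. Of the 3963 genes in both noUV libraries, 96.2% were also in both crosslinked libraries and 55 (1.39%) were in neither. At equal list length, with 18690 peaks per library, the noUV genes in neither crosslinked library numbered 1158, and leaving out 1 of the 4 libraries gave 96 to 382, so the small number depends on list length. The 55 genes had a median of 1.5 noUV peaks. Of them, 34 were listed in a crosslinked library without PAGE, and 37 in both noUV libraries without PAGE.

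The distribution over chromosomes shifted. The share of peaks on chromosome 19, which is densely packed with genes, was 6.48% and 5.89% without UV and 2.90% and 3.10% with UV, a ratio of 2.06. Chromosomes 16, 17 and 22 had ratios of 1.41, 1.39 and 1.35. Chromosome 13 was lowest, with 1.81% and 1.79% without UV against 2.95% and 2.92% with UV, a ratio of 0.614, followed by chromosomes 18 and 3 at 0.732 and 0.761. Leaving out the Y chromosome, the noUV libraries lay above both crosslinked libraries for 10 chromosomes and below both for 12. The ranges overlapped for the other 2, chromosomes 7 and 10.

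**Figure D4:**
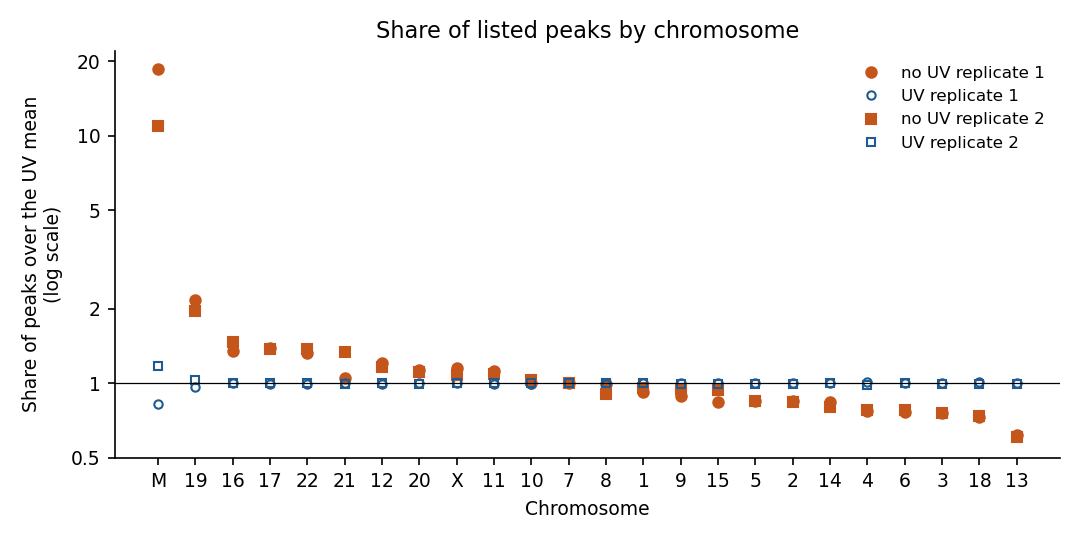
Share of listed peaks on each chromosome divided by the mean share of the 2 crosslinked libraries (log axis), for each noUV (filled) and crosslinked (open) library. The mitochondrial chromosome stands at a mean ratio of 14.8 without UV, chromosome 19 at 2.06 and chromosome 13 at 0.614.

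Mitochondrial RNA took a far larger share of the listed reads without UV. Mitochondria carry a small genome that encodes ribosomal RNAs, transfer RNAs and proteins of the respiratory chain, and its transcripts are made and kept inside the organelle, whereas PTBP1 is a nuclear and cytoplasmic protein. Of the listed reads, 8.91% and 6.67% were on chrM without UV, and 0.259% and 0.284% with UV. The number of chrM peaks differed less, at 81 and 94 without UV and 60 and 81 with UV. The share was also larger without UV for hnRNPA1 and RBFOX2 with PAGE, averaging 13.3% and 13.9% against 0.586% and 0.936%. For hnRNPI without PAGE it averaged 5.89% without UV and 1.08% with UV. For hnRNP C it averaged 5.32% without UV and 6.80% with UV. That UV average joins 11.9% in replicate 1, which had 3268 peaks, and 1.67% in replicate 2, which had 214849. Both noUV hnRNP C libraries, at 6.52% and 4.12%, lay between these 2 values. The cause was not tested. In the lists of the 4 libraries compared, 26 genes had peaks on chrM. Of the 16 listed in both crosslinked libraries, all 16 were kept and 0 lost, where 30.6% of all crosslinked genes were kept and 37.2% lost.

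Each gene's listed reads were next expressed per 10000 listed reads of all genes in its library, a peak under 2 gene identifiers counting for both, and compared on the log2(share + 0.5) scale with limma, over the 4212 genes with a mean share of at least 0.5. At a Benjamini-Hochberg adjusted p below 0.05, 761 genes (18.1%) had a higher share without UV and 1617 (38.4%) a lower one, and the median difference over all tested genes was -0.70. Shares sum to a fixed total, so a rise in some genes lowers the others. With each library centred on its median gene, 1069 genes were higher and 964 lower, and with peak numbers in place of reads 439 were higher and 432 lower, so the balance of directions depends on the scale. Without either of the crosslinked libraries, limma called 0 genes in both directions. Unadjusted p-values below 0.05 then numbered 459 higher and 619 lower without replicate 1, and 458 and 612 without replicate 2.

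Of the 22 chrM genes tested, 21 had a higher share without UV and 0 a lower one. Over all 4212 genes tested, 18.1% were higher and 38.4% lower. Their median difference was 3.06 on the log2 scale. Centring and each other pseudocount also gave 21 of 22, no filter on low values gave 21 of 26, and peak numbers gave 8 of 11 tested, with 0 lower in each. Over all genes, 1069 of 4212 were higher after centring, and 703 and 774 with pseudocounts of 0.1 and 2. With no filter 812 of 15927 were higher, and by peak number 439 of 5131. The chrM gene ENSG00000211459 had shares of 136 and 122 per 10000 without UV and 2.90 and 3.25 with UV, a difference of 5.18 ± 0.135 (SE) at an adjusted p of 0.0043 in limma. The gene not called differed by 1.45 ± 1.02 (SE; adjusted p = 0.281 in limma).

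Among the genes that passed the share filter, those spanning a short stretch of the genome were called higher more often than long genes. Span here is the distance from the first to the last peak of a gene over the 20 lists read for this comparison, which is a lower limit on gene length. Outside chrM, 205 of 295 tested genes under 10 kb were higher and 21 lower. Among them, 93 of the 100 genes under 1 kb were higher and 0 lower, with a median difference of 2.21. Among the filtered genes, frequent rises were thus not particular to chrM. Of 1831 genes of at least 100 kb, 195 were higher and 935 lower. A short gene with few reads can pass the filter through the group in which it is high, so these counts do not describe short genes in general. With no filter on low values, 255 of 4286 genes under 10 kb were higher and 555 lower, with a median difference of -0.02, and of 2969 genes of at least 100 kb 180 were higher and 1027 lower. The shares called higher were then similar in short and long genes.

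Within the filtered genes, median span was 33.0 kb for those called higher and 117 kb for those called lower, against 84.0 kb for all tested genes. Genes called lower had a median of 59.5 crosslinked peaks, and genes called higher 11.5. Centred on the median, 225 of 295 genes under 10 kb were higher and 6 lower, and 314 of 1831 genes of at least 100 kb were higher and 618 lower. The part of list length and of the filter in this pattern was not tested further.

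**Figure D5:**
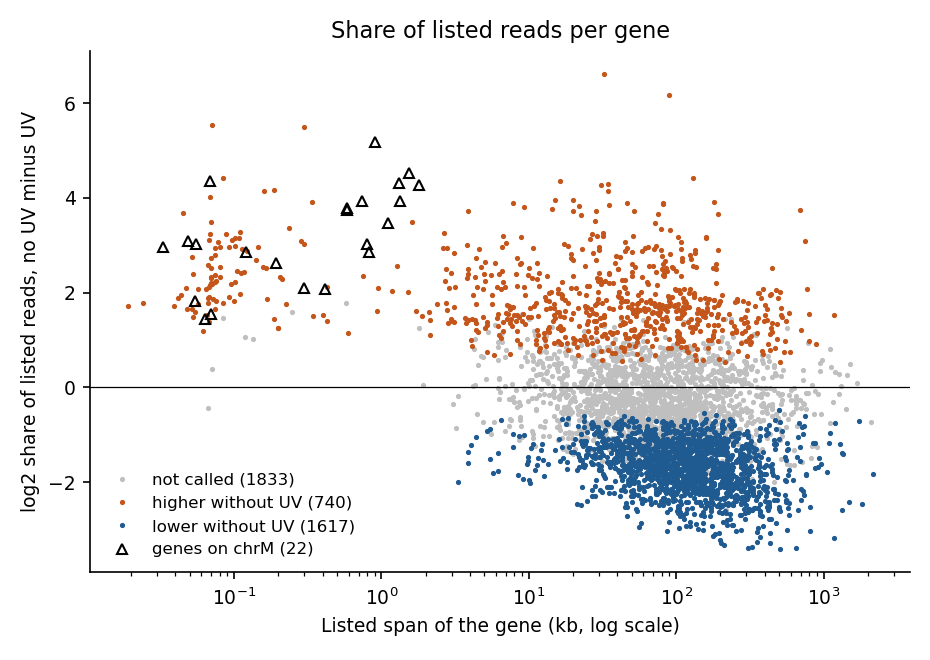
Difference in log2(share + 0.5) of listed reads, noUV minus crosslinked, against the listed span of each gene in kb (log axis), for the 4212 genes tested with limma; colours give the calls outside chrM and open triangles the 22 genes on chrM. Among these genes, which passed a filter on the mean share, short genes and chrM genes lie mostly above 0, and most genes spanning over 100 kb lie below it.

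The gene with the largest rise, ENSG00000213614, had shares of 76.2 and 44.7 per 10000 without UV and 0.143 and 0.0665 with UV, a difference of 6.61 ± 0.306 (SE; adjusted p = 0.0043 in limma). This rise comes from the stack of 15 nt on chromosome 15 described above. That stack is listed under 2 overlapping gene identifiers, so the gene of origin is uncertain, and by peak number the difference was 0.82 (adjusted p = 0.166 in limma). The 10 largest rises ran from 4.36 to 6.61 and included 3 chrM genes, and the genes' median span was 1.22 kb. Both identifiers of the chromosome 15 stack are among these 10, with the same noUV shares, so the 10 rises are not all separate.

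The 10 largest falls were all in genes spanning at least 199 kb, with 116.5 to 701 crosslinked peaks each, and ran from -3.41 to -3.18. With 0.5 added to each share, a fall can be no larger than the crosslinked share allows. Only genes with a large crosslinked share can rank here, so their spans and peak numbers are not a separate result. Some of the 10 were listed in neither noUV library and stand at that limit. The gene ENSG00000145982 was not listed in noUV replicate 1, had a share of 0.242 in replicate 2 and shares of 5.81 and 6.12 with UV, a difference of -3.41 ± 0.269 (SE; adjusted p = 0.0043 in limma). With a share of 0 in one library, its size depends on the pseudocount: it was -5.03 with 0.1 and -1.91 with 2. The gene ENSG00000127928 had shares of 0.643 and 2.7 without UV and 19.7 and 19.6 with UV, a difference of -3.40 ± 0.537 (SE; adjusted p = 0.0114 in limma). By peak number it was -2.01, which did not pass (adjusted p = 0.0923 in limma). Of the 1617 genes called lower, 751 were not listed in at least 1 noUV library. A noUV peak had at least 5 reads, a share of 0.321 in replicate 1 and 0.201 in replicate 2, and smaller shares cannot be seen there.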

How the data were processed

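Peak lists of 20 TLC-CLIP libraries were read: the 4 compared and 16 used only for overlap or span. Per the submitters' processing notes, the tools were bcl2fastq, STAR 2.7.3a and UMI-tools 1.0.1 and the build hg19. The file names give CLIPper as the peak caller. Each list holds the authors' deposited p-value per peak, called per library, and other values (gene identifier and last number of the peak name, at least 4 in each list, read as reads) that the authors deposited unscaled. Overlap meant at least 1 nt on the same strand. Peaks less than 30 nt apart were joined, and each joined group kept its highest read number for gene sums. Groups were compared by exact permutation tests and, for gene shares, by limma 3.58.1 (R 4.3.3). The limma steps were also run on simulated gene counts. Such counts differ from sums over listed peaks, so that run does not test the calls made here. Summaries used Python 3.11.15. The deposited read numbers are not defined in the sources used here and cover listed peaks alone, so no count model was used. Sites named were the first 5 of each class by rank of p, 1 per gene. Genes named were the largest changes and the largest mitochondrial rise. The groups, classes and gene lists were chosen with earlier results of these data known. The planned motif search and symbol lists were not run, since no matching genome or gene names were used here. The samples share replicate numbers only: deviations of same-numbered libraries correlated at -0.0208 over 4212 genes.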

Additional observations from a re-analysis of the deposited data

How the results depend on the processing

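Depth is unknown, and read numbers are unscaled. Cutting each list to its 18690 peaks of smallest p set the log2 peak difference to 0, turned the log2 gene difference to 0.30, and gave 5.63% of crosslinked sites kept, 10.5% of noUV peaks at a crosslinked peak, 1674 genes kept, 805 lost and 1158 in the noUV libraries alone. Joining peaks turned the width difference to 1.5 nt. Moving noUV peaks by 1000 nt gave 0.265% of sites kept and 13.7% of noUV peaks at a crosslinked peak. Counting 1 noUV library as enough gave 4.48% of sites kept. Restricting to p below 1e-05 gave 45.6% of noUV peaks at a crosslinked peak and 1064 genes kept. Asking for at least 2 peaks gave 34 genes in the noUV libraries alone. Joined positions, an alternative chosen after seeing the data, kept 1.24% of sites.

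Genes with a lower share numbered 1061 with a pseudocount of 0.1, 4035 without the filter on low values, 432 by peak number and 964 after centring, and genes with a higher share 439 by peak number. The causes were not tested. With the replicate number as a block, 722 genes were higher and 1641 lower, and no count moved by over 1.5 times.

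Leaving out 1 library at a time gave log2 differences of -4.02 to -3.04 for peaks and -1.41 to -0.89 for genes, and of -18 to -10 nt for width. Sites kept ranged from 0.756% to 3.39%, and noUV peaks at a crosslinked peak from 21.1% to 33.5%. Genes kept ranged from 3854 to 6798, lost from 5645 to 7617, and in the noUV libraries alone from 96 to 382. Genes with a higher share ranged from 0 to 1172 and with a lower share from 0 to 2799. The low end of both came without either crosslinked library, and the 4 genes named by identifier then also missed the threshold, with differences of the same sign.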
